A study of Mus musculus with 5 samples.

Results

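The cyclin-dependent kinase inhibitor genes are the 8 genes of the mouse whose symbols begin with Cdkn and that encode brakes on the cyclin-dependent kinases: Cdkn1a, Cdkn1b, Cdkn1c, Cdkn2a, Cdkn2b, Cdkn2c, Cdkn2d and Cdkn3. They were chosen by symbol, by a rule that uses no measured value, though with earlier results of these data known, and all 8 had a row among the 52550 genes of the count table. Libraries were made from KL cells, the Lin-cKIT+Sca-1- myeloid progenitors sorted from bone marrow, and read by Quant-seq, which sequences the 3′ end of polyadenylated transcripts. The BcorΔE9-10 group held 3 libraries from mice of genotype scl-Cre-ERT +; Bcorfl/y, and the BcorWT group held 2 libraries from Cre-bearing mice with a wild-type Bcor allele (scl-Cre-ERT +; Bcorwt/y). All animals of both groups had received 1 mg tamoxifen by intraperitoneal injection on each of 5 days at an age of 3 to 6 months, and cells were taken after 20 weeks. The Cre-ERT is driven by a stem cell enhancer of Scl, so that recombination was induced in haematopoietic stem cells and inherited by the KL cells. The loss of exons 9 and 10 leaves a truncated Bcor protein without the PUFD domain. The paper found this protein at a low level. The labels do not say whether each library came from a separate mouse, so p-values measure only the spread between these libraries.

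Cells pass from G1 into S phase when cyclin D with Cdk4 or Cdk6, and then cyclin E with Cdk2, phosphorylate the Rb proteins and free the E2F factors. The Ink4 proteins (p16Ink4a from Cdkn2a, p15Ink4b from Cdkn2b, p18Ink4c from Cdkn2c and p19Ink4d from Cdkn2d) bind Cdk4 and Cdk6, whereas the Cip/Kip proteins (p21 from Cdkn1a, p27 from Cdkn1b and p57 from Cdkn1c) bind cyclin-kinase complexes, chiefly those of Cdk2. Cdkn2a also encodes p19Arf, which inhibits Mdm2 and thereby stabilises p53, and Cdkn3 encodes a phosphatase that acts on Cdk2. In blood cells these genes are known for holding stem cells in quiescence and for the cell cycle exit that accompanies differentiation, and the Ink4-Arf locus is a classical target of Polycomb repression.

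In KL cells 5 of the 8 genes were expressed well enough to be tested, and none passed the limma test between genotypes. Cdkn2a, Cdkn2b and Cdkn1c were at or near 0 in every library. Cdkn2d was by far the most abundant and made up between 76.3% and 83.8% of the reads of the 8 genes in a library. Its level in BcorΔE9-10 was 0.768 of that in BcorWT (95% interval 0.643 to 0.918), with a limma adjusted p just outside the threshold of 0.05. DESeq2 called it lower, with an adjusted p of 0.0269. Cdkn3 was also lower on average and Cdkn2c higher, and neither passed after adjustment. Cdkn1b and Cdkn1a varied as much within a genotype as between them.

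Libraries held between 5998924 and 8303999 counts, and values are given as CPM, the count scaled to a library of 1e+06 counts after TMM normalisation. Genotype was tested with limma over 11766 genes, with Benjamini-Hochberg adjustment. The Bcor count was 196, 168 and 185 in BcorΔE9-10 and 83 and 109 in BcorWT, but these reads come from the 3′ end, outside the deleted exons, and so do not check the genotype. Of the markers written down for the KL sort, all 10 were expressed and 2 were called higher in BcorΔE9-10, where 6.02% of all genes were called higher. These were Kit, with a mean of 51.0 CPM against 18.9 CPM, and Myb, with 306 CPM against 229.8 CPM. The summed level of the 10, mostly Mpo, overlapped between the groups (7379 to 8702 CPM and 7894 to 8678 CPM). Of 10 mature neutrophil markers 7 were called lower in BcorΔE9-10, as were 4.09% of all genes tested, and their summed level was 148432 to 172397 CPM against 214684 to 227088. The lineage gate of the sort removes cells with CD11b or Gr-1 on their surface, and of the genes behind these markers Ly6g was lower in BcorΔE9-10 (219 against 445 CPM), while Itgam was at 124 against 96.4 CPM. In these sorted bulk samples, fewer cells of a type and less RNA per cell cannot be told apart.

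The promoters of the most abundant gene (Cdkn2d), of the Ink4 gene that was higher on average (Cdkn2c) and of the nearly silent Ink4-Arf genes (Cdkn2a and Cdkn2b) are shown because Polycomb complexes that contain Bcor are recruited to CpG-rich DNA through Kdm2b. Each sequence covers 300 bases, from 250 before to 50 after an annotated start, 5′ to 3′ on the strand of the gene, from RefSeq on GRCm38.p6, with every CpG in capitals. Of the 8 genes 7 had an entry, with 10 starts among them, and Cdkn1c had none.
Cdkn2d, chr9:21291160-21291459, minus strand: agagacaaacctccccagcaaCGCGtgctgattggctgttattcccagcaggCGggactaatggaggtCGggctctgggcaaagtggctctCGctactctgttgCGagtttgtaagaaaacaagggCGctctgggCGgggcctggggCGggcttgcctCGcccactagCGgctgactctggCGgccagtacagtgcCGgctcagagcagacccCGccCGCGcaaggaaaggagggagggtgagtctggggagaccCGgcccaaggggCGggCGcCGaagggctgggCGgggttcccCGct
Cdkn2c, upstream start, chr4:109666707-109667006, minus strand: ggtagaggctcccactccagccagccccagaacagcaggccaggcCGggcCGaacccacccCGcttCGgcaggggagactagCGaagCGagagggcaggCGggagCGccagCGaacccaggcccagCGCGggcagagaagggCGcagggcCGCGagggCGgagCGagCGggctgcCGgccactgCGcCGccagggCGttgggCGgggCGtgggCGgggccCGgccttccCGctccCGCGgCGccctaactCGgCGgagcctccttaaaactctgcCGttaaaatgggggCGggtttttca
Cdkn2a, upstream start of p19Arf, chr4:89294570-89294869, minus strand: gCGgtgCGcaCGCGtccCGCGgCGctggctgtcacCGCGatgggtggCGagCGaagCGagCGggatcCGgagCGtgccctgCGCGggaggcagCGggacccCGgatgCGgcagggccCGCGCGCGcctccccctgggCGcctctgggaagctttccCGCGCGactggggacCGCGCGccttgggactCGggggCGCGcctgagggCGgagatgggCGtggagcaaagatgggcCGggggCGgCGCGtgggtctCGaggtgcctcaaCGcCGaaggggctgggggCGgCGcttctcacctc
Cdkn2a, downstream start of p16Ink4a, chr4:89282143-89282442, minus strand: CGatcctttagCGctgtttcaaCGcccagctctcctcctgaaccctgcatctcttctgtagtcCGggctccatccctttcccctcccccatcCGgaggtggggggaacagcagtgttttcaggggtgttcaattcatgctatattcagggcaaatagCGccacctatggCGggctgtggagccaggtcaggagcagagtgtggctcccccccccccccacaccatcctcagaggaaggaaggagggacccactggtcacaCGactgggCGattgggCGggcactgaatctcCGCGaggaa
Cdkn2b, chr4:89310983-89311282, minus strand: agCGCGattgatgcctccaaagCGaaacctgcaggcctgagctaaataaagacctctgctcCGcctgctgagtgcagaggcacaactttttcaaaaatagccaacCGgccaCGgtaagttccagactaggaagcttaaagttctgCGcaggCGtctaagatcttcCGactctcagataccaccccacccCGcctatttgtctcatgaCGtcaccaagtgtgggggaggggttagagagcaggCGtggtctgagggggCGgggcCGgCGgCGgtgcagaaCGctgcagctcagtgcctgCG
The Cdkn2d window held 22 CpG and the upstream Cdkn2c window 33, against a median of 7 over 32851 RefSeq promoters of the same length. A further Cdkn2c start, not printed, held 8. The p19Arf start held 45, the Cdkn2b start 18 and the p16Ink4a start 12, which placed them at percentiles 98.1, 70.3 and 60.4 of all promoters. The ratio of observed to expected CpG was 0.681 for Cdkn2d, 0.823 for the upstream start of Cdkn2c, 1.04 for p19Arf, 0.722 for Cdkn2b and 0.442 for p16Ink4a, and 35.8% of all promoters reached 0.6. The motif GGGCGG, the core of the Sp1 site, was searched on both strands and was found 5 times at Cdkn2d, 4 times at the upstream start of Cdkn2c, 3 times at p19Arf and once each at p16Ink4a and Cdkn2b. It was absent from the other Cdkn2c start and present in 35.7% of all promoters.

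The order of the levels was Cdkn2d, Cdkn3, Cdkn2c, Cdkn1b and Cdkn1a in CPM, and it was the same per kb of exon length. Over the 5 libraries Cdkn2d had a mean level of 316 CPM, Cdkn3 32.8, Cdkn2c 22.2, Cdkn1b 17.9 and Cdkn1a 4.36. Divided by exon length, the means were 201, 42.4, 8.25, 3.92 and 1.96 CPM per kb in that order. The exon length used for Cdkn3 was 773 bases, while its longest transcript has 1952, so its value per kb is uncertain. On the scale per kb the ranges over the libraries did not overlap between neighbours. These were 29.5 to 56.7 CPM per kb for Cdkn3, 6.56 to 9.53 for Cdkn2c and 2.93 to 4.88 for Cdkn1b. Quant-seq reads the end of a transcript, and in CPM without division by length Cdkn2c (17.6 to 25.6) overlapped both Cdkn3 (22.8 to 43.9) and Cdkn1b (13.3 to 22.2).

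**Figure D1:**
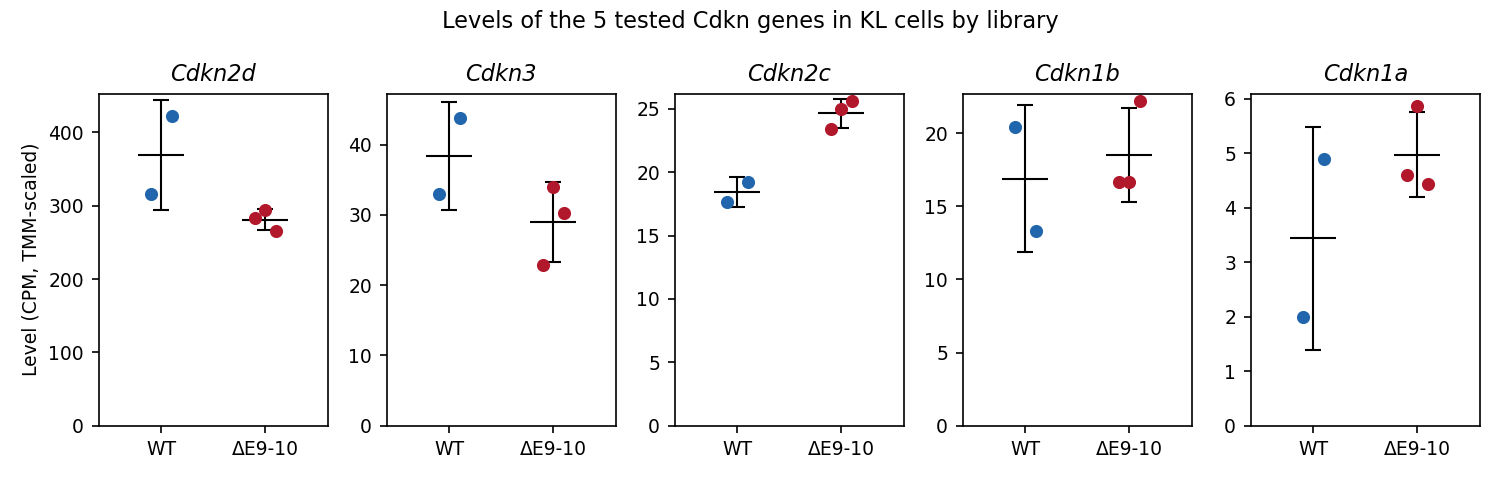
Level in CPM (TMM-scaled, linear axes from 0) of the 5 tested Cdkn genes, with 1 point per library and bars for mean ± SD (n = 2 BcorWT, n = 3 BcorΔE9-10). The 3 BcorΔE9-10 libraries lie below both BcorWT libraries for Cdkn2d and above both for Cdkn2c, and the groups overlap for Cdkn3, Cdkn1b and Cdkn1a.

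Of the 5 tested genes none was called by limma at an adjusted p under 0.05, where 10.1% of all genes tested were called (708 or 6.02% higher and 481 or 4.09% lower in BcorΔE9-10). At an unadjusted p under 0.05 limma passed 3 of them (Cdkn2d, Cdkn2c and Cdkn3), against 25.3% of all genes. The edgeR quasi-likelihood test called none of them, against 11.2% of all genes, and DESeq2 called 1, Cdkn2d, against 10.9%. The levels of the genotypes did not overlap for Cdkn2c and Cdkn2d, as they did not for 42.8% of all genes tested. Cdkn2c was the higher one in BcorΔE9-10, like 22.6% of all genes, and Cdkn2d the lower one, like 20.3%.

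Among the Ink4 genes, Cdkn2d (ENSMUSG00000096472.2, chr9:21288410-21291407, mm10, minus strand) was measured at 284, 294 and 266 CPM in the 3 BcorΔE9-10 libraries and at 316 and 422 CPM in the 2 BcorWT libraries. The BcorΔE9-10 libraries lay close together and below both BcorWT libraries, which were farther apart. The means were 281 ± 14.1 CPM (SD, n = 3) and 369 ± 75.0 CPM (SD, n = 2), and the log2 fold change was -0.38 (SE 0.122, limma adjusted p = 0.057). This value changed sides of the threshold with the processing. DESeq2 gave -0.41 with an adjusted p of 0.0269, and limma on total counts without TMM factors gave -0.24 with 0.238. The log2 fold change also rested on which BcorWT library was kept, since it was -0.60 without BcorWT replicate 1 and -0.17 without BcorWT replicate 2. The nearest gene, Kri1, lies 0.441 kb away, and its counts were 280, 157 and 228 against 297 and 278.

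Cdkn2c (ENSMUSG00000028551.14, chr4:109660876-109667189, minus strand), whose product p18Ink4c is known to limit self-renewal of haematopoietic stem cells, was measured at 23.4, 25.0 and 25.6 CPM in BcorΔE9-10 and at 17.6 and 19.3 CPM in BcorWT. Every BcorΔE9-10 library was above both BcorWT libraries, and the libraries of each group lay close together. The log2 fold change was 0.42 (95% interval 0.026 to 0.81, limma adjusted p = 0.168) and stayed between 0.35 and 0.49 whichever library was left out. The end of the Cdkn2c transcript is poor in GC, with 29.0% over its last 300 bases. When counts were corrected for the GC content of transcript ends, the log2 fold change was 0.12 (adjusted p = 0.743).

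Cdkn2a (ENSMUSG00000044303.6, chr4:89274471-89294653, minus strand) had 0, 0 and 2 counts in BcorΔE9-10 and 2 and 2 in BcorWT. Cdkn2b (ENSMUSG00000073802.4, chr4:89306289-89311032, minus strand), which lies 11.6 kb away, had 0 counts in all 5 libraries. No library exceeded the 3 counts that a count of 0 still allows, which correspond to between 0.351 and 0.490 CPM, so that no fold change was computed and a difference below this level was not detectable at this depth. These limits cover counting error only. The p16Ink4a and p19Arf transcripts of Cdkn2a share their 3′ end, and Quant-seq reads would not tell them apart. Their neighbours differed in level, since Mtap, 93.4 kb from Cdkn2a, had 64, 53 and 76 counts against 58 and 59, while Dmrta1, 368 kb beyond Cdkn2b, had 0 throughout.

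Of the Cip/Kip genes, Cdkn1b (ENSMUSG00000003031.14, chr6:134920401-134925513, plus strand) was measured at 16.7, 16.6 and 22.2 CPM in BcorΔE9-10 and at 20.4 and 13.3 CPM in BcorWT. The groups overlapped, with BcorΔE9-10 libraries on either side of BcorWT replicate 1 and all of them above BcorWT replicate 2. The log2 fold change was 0.16 (95% interval -0.33 to 0.64, limma adjusted p = 0.722). Its sign turned with the GC correction (-0.042) and without BcorΔE9-10 replicate 3 (-0.0036) or BcorWT replicate 2 (-0.14).

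Cdkn1a (ENSMUSG00000023067.13, chr17:29090979-29100722, plus strand), the best known transcriptional target of p53, had 39, 36 and 38 counts in BcorΔE9-10 and 14 and 33 in BcorWT. This came to 4.61, 5.87 and 4.44 CPM against 1.99 and 4.89 CPM, so that 1 BcorWT library was low and the other lay within the BcorΔE9-10 range. The log2 fold change was 0.63 (95% interval -0.28 to 1.55, limma adjusted p = 0.38). Without BcorWT replicate 1 it was -0.020, and without BcorWT replicate 2 it was 1.26, neither past the threshold. Cdkn1a overlaps the annotated gene AC167363.2 on the opposite strand, and with the counting options not given, reads of both may be included.

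Cdkn1c (ENSMUSG00000037664.13, chr7:143458339-143461050, minus strand), whose product p57 is known for quiescence of stem cells, had 0, 1 and 0 counts in BcorΔE9-10 and 2 and 0 in BcorWT. No library passed the floor of 3 counts. Its neighbour Kcnq1 had 0 counts in all libraries and Slc22a18 had 4, 1 and 0 against 2 and 0, so that these neighbours gave almost no reads in either genotype.

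Cdkn3 (ENSMUSG00000037628.9, chr14:46760541-46771525, plus strand), whose transcript is known to rise in dividing cells, was measured at 22.8, 33.9 and 30.3 CPM in BcorΔE9-10 and at 32.9 and 43.9 CPM in BcorWT. BcorΔE9-10 replicate 2 lay just above the lower BcorWT library. The log2 fold change was -0.42 (95% interval -0.83 to -0.021, limma adjusted p = 0.174). It was -0.64 without BcorWT replicate 1, -0.22 without BcorWT replicate 2 and -0.25 without BcorΔE9-10 replicate 1, and its sign was the same in all 16 alternatives run.

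**Figure D2:**
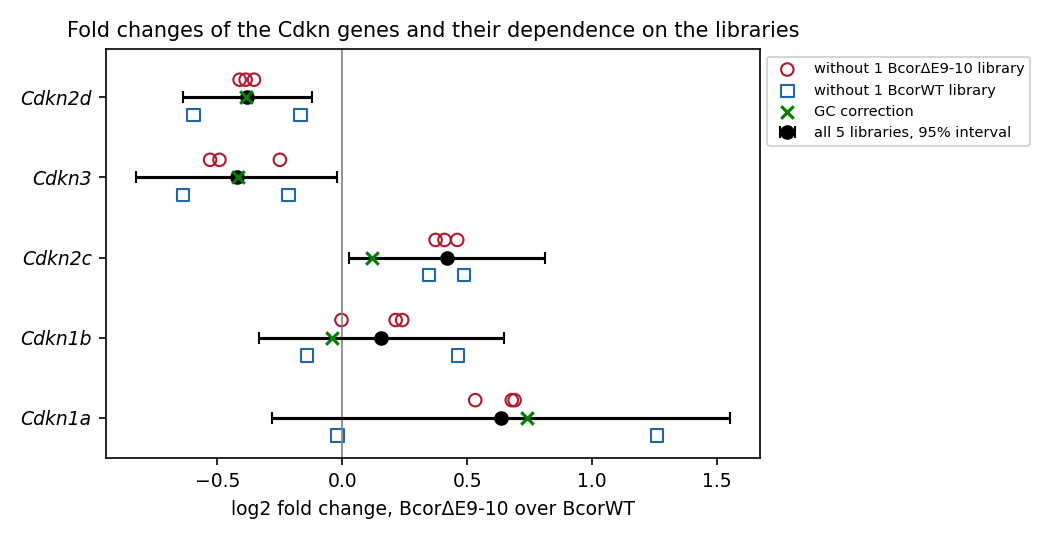
Log2 fold change of each tested Cdkn gene, BcorΔE9-10 over BcorWT, from limma on all 5 libraries (black, with 95% interval), with 1 BcorΔE9-10 library left out (red circles), with 1 BcorWT library left out (blue squares) and after the GC correction (green crosses). Leaving out a BcorWT library moved Cdkn1a between -0.020 and 1.26 and Cdkn2d between -0.60 and -0.17, while the GC correction moved Cdkn2c to 0.12.

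Ratios of 2 genes within a library do not depend on the scaling of the libraries. The ratios were chosen after the values had been seen, so that a test of them is no support, and the exact two-sided permutation p of 3 against 2 libraries, which cannot fall below 0.2, was 0.2, 0.2 and 0.6 for the 3 ratios in the order given. The ratio of Cdkn2d to Cdkn2c counts was 12.1, 11.8 and 10.4 in BcorΔE9-10 and 18.0 and 21.9 in BcorWT. The ratio of Cdkn3 to Cdkn2c counts was 0.975, 1.36 and 1.18 against 1.87 and 2.28. Both ratios were lower in every BcorΔE9-10 library than in either BcorWT library, and both have Cdkn2c as denominator, the gene whose fold change moved with the GC correction. The ratio of Cdkn2d to Cdkn1b, at 17.0, 17.6 and 12.0 against 15.5 and 31.7, overlapped between the groups.

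**Figure D3:**
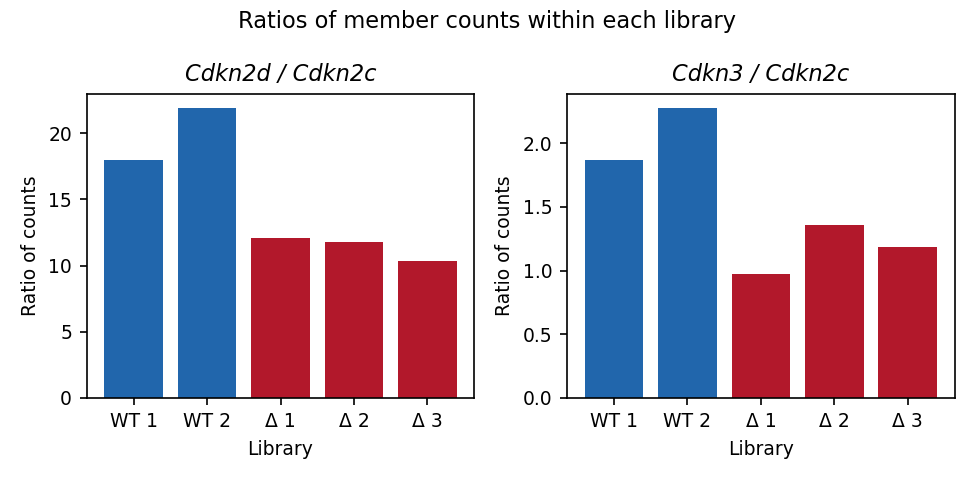
Ratio of Cdkn2d to Cdkn2c counts (left) and of Cdkn3 to Cdkn2c counts (right) in each library, with linear axes from 0, BcorWT in blue and BcorΔE9-10 in red (Δ). The BcorΔE9-10 bars reach 10.4 to 12.1 and 0.975 to 1.36, and the BcorWT bars 18.0 to 21.9 and 1.87 to 2.28.

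The kinases and cyclins on which these inhibitors act were examined as a list of 18 tested genes. It held 3 called genes (16.7%, against 10.1% of all genes), all lower in BcorΔE9-10, with a median log2 fold change over the list of 0.08 against 0.0043 over all genes. Ccnd3, a D-type cyclin that activates Cdk4 and Cdk6, was measured at 877, 851 and 800 CPM against 1169 and 1340 CPM, a fall with a log2 fold change of -0.57 (adjusted p = 0.00117, limma). Cdc25b, a phosphatase that activates cyclin-dependent kinases, had -0.75 (adjusted p = 0.00937), and both genes were called lower in all 16 alternatives. Ccne1, the cyclin E that pairs with Cdk2, had -0.64 (adjusted p = 0.035), but this call was lost under 10 of 16 alternatives, with limma adjusted p values of 0.0645 to 0.198 without any of the BcorΔE9-10 libraries or without BcorWT replicate 2. Ccnd3 and Cdc25b each overlap another gene on the opposite strand (Bysl and Spef1), as do Cdk2, Cdk4, Cdk6, Ccnd1, Ccnd2, Skp2, E2f8 and Rbl1, and reads of both may be included.

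The direct targets of the inhibitors did not pass the test. Cdk6, bound by the Ink4 proteins, had 478, 458 and 499 CPM against 433 and 403 CPM (log2 fold change 0.20, limma adjusted p = 0.23). Cdk4 had 33.6, 32.3 and 33.7 CPM against 38.9 and 45.2 CPM (-0.33, adjusted p = 0.18), and Cdk2 gave 0.22 (adjusted p = 0.354). Cdk2 moved to 0.012 without BcorWT replicate 1, to 0.43 without BcorWT replicate 2 and to 0.13 without BcorΔE9-10 replicate 2. On total counts without TMM factors Cdk6 passed, at 0.34 with an adjusted p of 0.0367. Ccnd1 and Ccnd2, the other D-type cyclins, had log2 fold changes of 0.35 (adjusted p = 0.502) and 0.10 (adjusted p = 0.65), and that of Ccnd2 turned sign with the GC correction. With 1 library left out in turn they ranged from 0.13 to 0.59 and from 0.028 to 0.17.

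Of the 12 tested genes of the Rb and E2F family, 2 were called (16.7%), both higher in BcorΔE9-10, where 6.02% of all genes were called higher, and the median log2 fold change was 0.13. An unadjusted limma p under 0.05 was found for 8 of the 12, against 25.3% of all genes. E2f8, a repressive E2F, was measured at 91.0, 124 and 122 CPM against 22.9 and 45.9 CPM, which gave 1.77 ± 0.225 (SE) on the log2 scale with an adjusted p of 0.00014 in limma. Rbl1, which encodes the pocket protein p107, gave 0.66 (adjusted p = 0.0241). The Rbl1 call was lost when any BcorΔE9-10 library or BcorWT replicate 1 was left out (adjusted p from 0.0515 to 0.177) and with the GC correction (adjusted p = 0.39).

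Of 21 tested genes of the p53 pathway only Trp53 itself was called by limma (4.76%, against 10.1% of all genes), and the list median was -0.08. Trp53 was measured at 9.93, 7.51 and 9.47 CPM against 3.69 and 2.37 CPM, every BcorΔE9-10 library above both BcorWT libraries, and its log2 fold change was 1.58 (SE 0.391, limma adjusted p = 0.0173). With BcorWT replicate 1 or BcorWT replicate 2 left out the adjusted p was 0.0693 or 0.0913. Mdm2, the ubiquitin ligase that degrades p53 and is also its target, was not called (-0.30, adjusted p = 0.141), as Cdkn1a was not. The edgeR quasi-likelihood test called 4 of the 21 genes of this list and DESeq2 called 3, against 11.2% and 10.9% of all genes. An unadjusted limma p under 0.05 was found for 9 of the 21, against 25.3% of all genes.

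For genes of the turnover of Cip/Kip proteins, which are ubiquitin ligase subunits and their cofactors and regulators, limma called none of 16 tested genes, edgeR and DESeq2 also called none (against 10.1%, 11.2% and 10.9% of all genes), and 4 had an unadjusted limma p under 0.05, as had 25.3% of all genes. Skp2, which targets p27 for degradation, had 0.36 on the log2 scale (adjusted p = 0.394), which moved to 0.14 without BcorWT replicate 1 and to 0.56 without BcorWT replicate 2.

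Among the Polycomb genes known to act on the Ink4-Arf locus 1 of 16 (6.25%, against 10.1% of all genes) was called, Bcor (0.78, limma adjusted p = 0.0313). Bcor is the recombined gene, read here from its 3′ end, and the paper found its truncated protein only at a low level. Of the 16 genes 15 had a log2 fold change above 0, and the median was 0.34 against 0.0043 over all genes. Bmi1, the best known repressor of Ink4-Arf, had 160, 96 and 142 counts against 92 and 88 (0.39, adjusted p = 0.274). The list median was 0.20 after the GC correction, under which Bcor was not called (adjusted p = 0.254). Bcor was also not called without any 1 of the BcorΔE9-10 libraries or BcorWT replicate 1 (adjusted p from 0.0521 to 0.272).

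Of 23 tested transcription factors known to act on Cdkn genes, 4 were called (17.4%, against 10.1% of all genes), all higher in BcorΔE9-10, and the median log2 fold change was 0.07. Myc, a repressor of Cdkn1a and Cdkn2b through Miz1, was measured at 13.4, 16.0 and 9.47 CPM against 2.27 and 2.82 CPM, which gave 2.26 ± 0.446 (SE) on the log2 scale with an adjusted p of 0.00401 in limma and was called in all 16 alternatives. The others were Trp53, Smad3 (0.72, adjusted p = 0.033), which carries the TGF-beta signal to Cdkn2b, and Klf6 (0.68, adjusted p = 0.0462), an activator of Cdkn1a. Smad3 lost its call without any 1 of the 5 libraries (adjusted p from 0.0531 to 0.188). Klf6, whose groups overlapped, lost it under 7 of 16 alternatives, among them DESeq2 (adjusted p = 0.258) and the fits without BcorΔE9-10 replicate 1, BcorΔE9-10 replicate 2 or BcorWT replicate 2 (0.0857 to 0.248). Its log2 fold change was 0.40 without BcorWT replicate 2 and 0.39 with the GC correction.

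**Figure D4:**
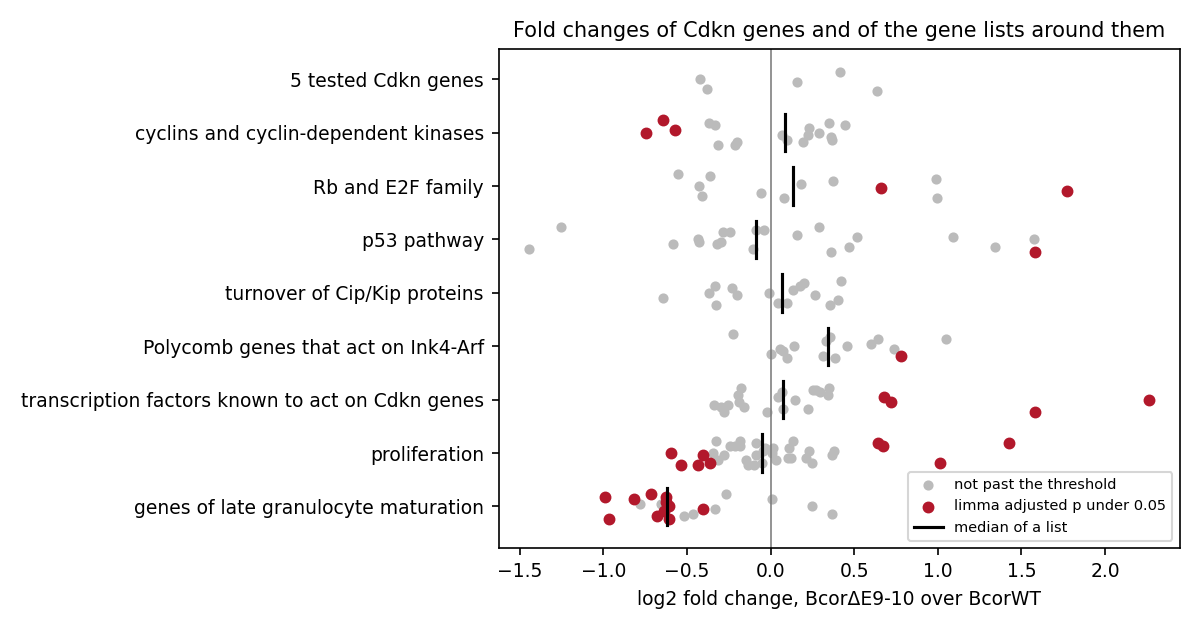
Log2 fold change, BcorΔE9-10 over BcorWT, of each tested gene of the Cdkn genes and of 8 lists around them, red where the limma adjusted p was under 0.05, with a line at the median of each list. None of the 5 tested Cdkn genes is red, and 11 of the 20 genes of late granulocyte maturation are, all lower.

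Because inhibitor levels are known to vary with division and differentiation, genes of both processes were read beside them. Of 37 proliferation genes 4 were called higher and 5 lower (24.3% in all, against 10.1% of all genes), with a median of -0.05. The higher ones included Bub1 (1.42, limma adjusted p = 0.012), Aurkb (1.01, 0.00438) and Pcna (0.67, 0.00359), of which Bub1 and Aurkb were not called without BcorWT replicate 1 (0.192 and 0.0868). The log2 fold change of Bub1 was 0.76 without that library and 2.06 without BcorWT replicate 2, and that of Aurkb was 0.67 and 1.35. The lower ones, named after their values were seen, were Mki67, Plk1, Birc5, Cenpf and Cdca8, with log2 fold changes from -0.59 to -0.36. The summed level of the list was 4799, 4797 and 4985 CPM in BcorΔE9-10 and 4783 and 5879 CPM in BcorWT. The highest sum was that of BcorWT replicate 2, the library with the highest Cdkn2d and Cdkn3. The lowest was that of BcorWT replicate 1, whose Cdkn2d was above every BcorΔE9-10 library. BcorΔE9-10 replicate 3 had the next highest sum and the lowest Cdkn2d.

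Of 20 genes of late granulocyte maturation 11 were called (55%), all lower in BcorΔE9-10, where 4.09% of all genes were called lower, and the median was -0.62. The list holds all 10 mature neutrophil markers given above, and the 7 called among those are part of the 11. Ifitm6 (-0.99, limma adjusted p = 7.95e-05), Ly6g (-0.97, 0.00204) and Ltf (-0.81, 7.34e-05) were the 3 with the largest changes, and each was called in all 16 alternatives. Ly6g was -0.55 without BcorWT replicate 1 and -1.37 without BcorWT replicate 2. Of the 20 genes 3 had a log2 fold change above 0, among them Camp (0.25) and Itgam (0.37), named after their values were seen. The summed level of all 20 was 176684, 164108 and 152740 CPM against 233513 and 221198 CPM. This sum was mostly S100a8 and S100a9. Both the sum and Cdkn2d were lower in every BcorΔE9-10 library than in either BcorWT library. Between the BcorWT libraries the sum was higher in replicate 1 and Cdkn2d in replicate 2. The part of cell composition in the Cdkn2d difference was not tested. Of the remaining marker lists, 5 of 5 tested eosinophil markers and 4 of 6 tested basophil and mast cell markers were called lower. Of 8 tested erythroid markers 1 was called higher. The erythroid markers summed to 120 to 308 CPM in BcorΔE9-10 and to 67.7 to 111 CPM in BcorWT. Of 8 stem cell markers 3 were tested and 1, Hoxa9, was called higher, at 28.2, 20.9 and 32.8 CPM against 2.27 and 2.22 CPM, while Fgd5 was at 0. The stem cell markers other than Hoxa9 had a higher sum in every BcorΔE9-10 library (at most 15.8 CPM) than in either BcorWT library (at most 11.3 CPM). The monocyte markers summed to 1080 to 1194 CPM against 1427 to 1432 CPM, with 1 called lower.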

How the data were processed

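Per the labels, the authors made Quant-seq 3′ libraries, processed reads with bcl2fastq 2.17.1.14 and cutadapt (given as version 1.7 in the submitters' processing notes, while the study's methods name another version), aligned them with HISAT2 to mm10 (GRCm38) and used featureCounts (Subread 1.5.0-p3) for counting. The deposited columns hold raw counts, not normalised, beside the exon length of each gene. Strand and multi-mapping options were not given in the sources used here. Totals ranged from 5998924 to 8303999 counts. The chi-square per gene between libraries of a group, 1 for counting noise alone, was 6.01 to 7.01 in BcorΔE9-10 and 11.6 in BcorWT. Genes were kept by filterByExpr of edgeR 4.0.16 (minimum count 10, minimum total 15), scaled by TMM and tested with limma 3.58.1 on voom values in R 4.3.3, two-sided, with Benjamini-Hochberg adjustment over all 11766 genes. Alternatives included the edgeR quasi-likelihood test, DESeq2 1.42.0, total counts, a lowess correction (span 0.3) for GC content of the last 300 bases of transcripts, and each library left out. Fits were tested on simulated data. Members and lists were chosen with earlier results of these data known. Named genes were the 8 members, their known partners, Bcor, and up to 3 called genes of a list with the largest fold change and a mean log2 CPM of at least 3. Genes most like a member were to be named only for called members, so none was. CpG and motifs were searched in RefSeq promoters, and overlapping genes in GENCODE M21. No protein sequence was used here.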

Additional observations from a re-analysis of the deposited data

How the results depend on the processing

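Over 16 alternatives, 69 of the 80 fold changes of the tested Cdkn genes kept their direction and their side of the threshold. Cdkn2d was called lower in 5, namely DESeq2 (-0.41), RLE factors (-0.40), no filter (-0.38), counts drawn down to 5998924 per library (-0.39) and without BcorWT replicate 1, so that the number of members called was 1 there. With 1 library left out in turn, members called ranged from 0 to 1 and all genes called from 558 to 1200, against 1002 to 1454 under the other alternatives, and log2 fold changes ranged from -0.60 to -0.17 for Cdkn2d, from -0.020 to 1.26 for Cdkn1a and from -0.14 to 0.46 for Cdkn1b. Where 1 BcorWT library remained, it was assumed to vary like the BcorΔE9-10 libraries. The BcorWT libraries varied more, with a chi-square per gene of 11.6 against 6.01 to 7.01 between BcorΔE9-10 libraries. Adjusted p values of fits with 1 BcorWT library may therefore be too small. Cdkn1b turned to -0.042 with the GC correction and Ccnd2 to -0.046.

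In the labels, same-numbered libraries shared only a number. The correlation of deviations was 0.070 and 0.076 for the 2 same-numbered pairs. Deviations of 2 BcorWT libraries from their mean mirror each other, so the swapped pairs gave -0.070 and -0.076. These values therefore cannot decide whether same-numbered libraries were paired. The replicate block called 1454 genes and none of the Cdkn genes at an adjusted p under 0.05. The library without a BcorWT library of the same number did not inform the genotype difference in that fit. Little was left to estimate the spread, so the number of genes called under the block is uncertain. Under the block Cdkn1b was -0.036, and under the block with the GC correction Cdkn1b was -0.23 and Ccnd2 -0.082.

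Total counts without TMM factors shifted the median of all genes to 0.149, with 1210 called higher and 197 lower against 708 and 481. The list medians were then 0.23 for cyclins and kinases, 0.28 for Rb and E2F, 0.062 for the p53 pathway, 0.21 for turnover, 0.49 for Polycomb, 0.22 for transcription factors, 0.091 for proliferation and -0.47 for late granulocyte genes. With the GC correction they were -0.013 for cyclins and kinases, -0.022 for Rb and E2F, -0.0034 for turnover, 0.20 for Polycomb and -0.51 for late granulocyte genes. With the replicate block and the GC correction they were -0.085, 0.0058, 0.0014 and 0.11 for the 4 lists from cyclins and kinases to Polycomb in that order, and -0.023 for transcription factors, which had 0.21 under the block alone and 0.15 with counts drawn down. Leaving out 1 library gave ranges of -0.24 to 0.095 for cyclins and kinases, -0.023 to 0.30 for Rb and E2F and -0.18 to 0.13 for the p53 pathway. The ranges were -0.021 to 0.20 for transcription factors, -0.18 to 0.052 for proliferation and -0.74 to -0.36 for late granulocyte genes. In all, 97 of 128 list medians moved by less than the spread between replicates. Of 384 fold changes of 24 named genes outside the family, 342 kept direction and side, 39 lost their call, 1 gained it and 2 reversed. The cause of these shifts was not tested. Cdkn1a had the fewest counts of the tested Cdkn genes, fewer than 40 in each library.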
